A study of Sus scrofa with 9 samples.

Results

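The CD antigens of leukocytes were described in testis biopsies of pigs, as 51 genes whose symbol on the array is CD followed by a number. They were chosen by that name alone, from 49795 gene names on the array, and carry 107 of its 60889 probes. The same naming rule also matched 33 porcine brain sequence tags whose accession has the form of a CD number; these are not antigens and are given apart, at the end. PTPRC (CD45), which the rule also asks for, CD68 and CD79B have no probe under these names and were not analysed here. Each gene is represented by the probe with the highest mean in the authors' value table, or, for 21 genes with no probe in that table, by the probe with the highest mean signal.

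Total RNA of testicular biopsies was hybridised to single-colour arrays in 3 groups of 3 arrays. The control arrays hold control boars of normal karyotype (2n=38,XY), which the methods describe as fertile with normal semen. The oligospermic arrays hold an oligospermic boar with the same karyotype. The t(1;14) arrays hold 1 Landrace × Duroc boar with oligo-astheno-teratospermic semen that carries the reciprocal translocation trcp(1;14). Ages were not given, and the sources do not say which control boar each control array holds. Since the t(1;14) and the oligospermic group come from 1 boar each, arrays were compared and not populations of animals, and the translocation cannot be told apart from other differences between the boars.

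CD numbers were assigned to molecules that antibodies recognise on leukocytes, and they cover proteins of very different kinds. CD3, CD4 and CD8 define T cells, CD79 is part of the B cell receptor, and CD14 and CD163 are receptors of monocytes and macrophages, which lie between the seminiferous tubules next to Leydig cells. Other CD antigens, such as the tetraspanins CD9, CD81 and CD82, the complement regulator CD59 and the sialomucin CD164, are carried by many cells that are not leukocytes. In whole biopsies, fewer cells of a type and less RNA per cell cannot be told apart.

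Between 37087 and 40632 probes per array were well above background, the flag of the scanner software used here for detection, and every slide held 1 array of each group. No spot of the 107 probes was saturated or carried an outlier flag. Levels are quantile normalised log2 intensities. Differences are log2 fold changes with their standard error from limma, and a member is called higher or lower at an adjusted p of at most 0.01 over all probes tested. The median difference of all probes tested was 0.14 in t(1;14) against control and 0.14 in t(1;14) against oligospermic, so that the members are read against that shift. The number of arrays limits the precision.

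The T cell genes CD2, CD3D, CD3E, CD3G, CD4, CD8A and CD8B and the B cell gene CD79A were not well above background on any array. They have 15 probes between them, and 0 of these passed the flag on any of the 9 arrays. Their levels lay between 1.33 and 4.09, while the lowest signal well above background was between 3.20 and 3.99 depending on the array. CD247, the zeta chain that signals for the T cell receptor complex, was well above background on all 9 arrays with both of its probes. Its probe below and that of CD79A, the signalling chain of the B cell receptor, both lie in the immunoreceptor tyrosine motif, and the CD3D probe is given as the T cell counterpart. Capitals mark the codons of tyrosine, any 2 residues, then leucine or isoleucine, read on the strand printed in a frame without a stop codon, and 0.345% of all probes hold at least 2 such matches.
CD247: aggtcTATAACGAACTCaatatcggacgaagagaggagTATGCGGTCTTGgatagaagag
CD79A: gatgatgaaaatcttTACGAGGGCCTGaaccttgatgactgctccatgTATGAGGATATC
CD3D: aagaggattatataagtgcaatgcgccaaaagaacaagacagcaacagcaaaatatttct

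This CD247 probe read 10.20, 9.92 and 10.18 on the control arrays, 10.24, 10.34 and 10.40 on the oligospermic arrays and 9.45, 9.65 and 9.37 on the t(1;14) arrays. All t(1;14) arrays lay below those of both other groups. The CD79A probe read 1.71, 1.94 and 3.40 in controls, 1.73, 2.44 and 1.92 in the oligospermic boar and 1.68, 1.73 and 1.80 in the t(1;14) boar. The CD3D probe read 2.34, 1.89 and 1.46, then 2.95, 1.62 and 1.50, then 1.61, 2.50 and 1.46 in the same order. Neither CD79A nor CD3D was well above background on any array, so no difference between the groups was tested for them.

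Of the 51 CD antigens, 27 were well above background on all 9 arrays (52.9%, against 55.3% of all probes), 17 on none (33.3%, against 26.7% of all probes) and 7 on some. Besides the 8 genes above, the 17 included CD40LG, CD44, CD69, CD84, CD163L1, CD180, CD276 and CD300LG. At least 2 of 3 arrays passed the flag for 30 members in controls, 28 in the oligospermic boar and 30 in the t(1;14) boar. CD53, CD70 and CD274 passed on 1 array each and were not tested. The other members on some arrays were CD46, CD80, CD86 and CD109. By a less strict flag, for a signal positive and significant over background, 43, 42 and 40 members passed on at least 2 arrays, in the same order of groups.

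**Figure D1:**
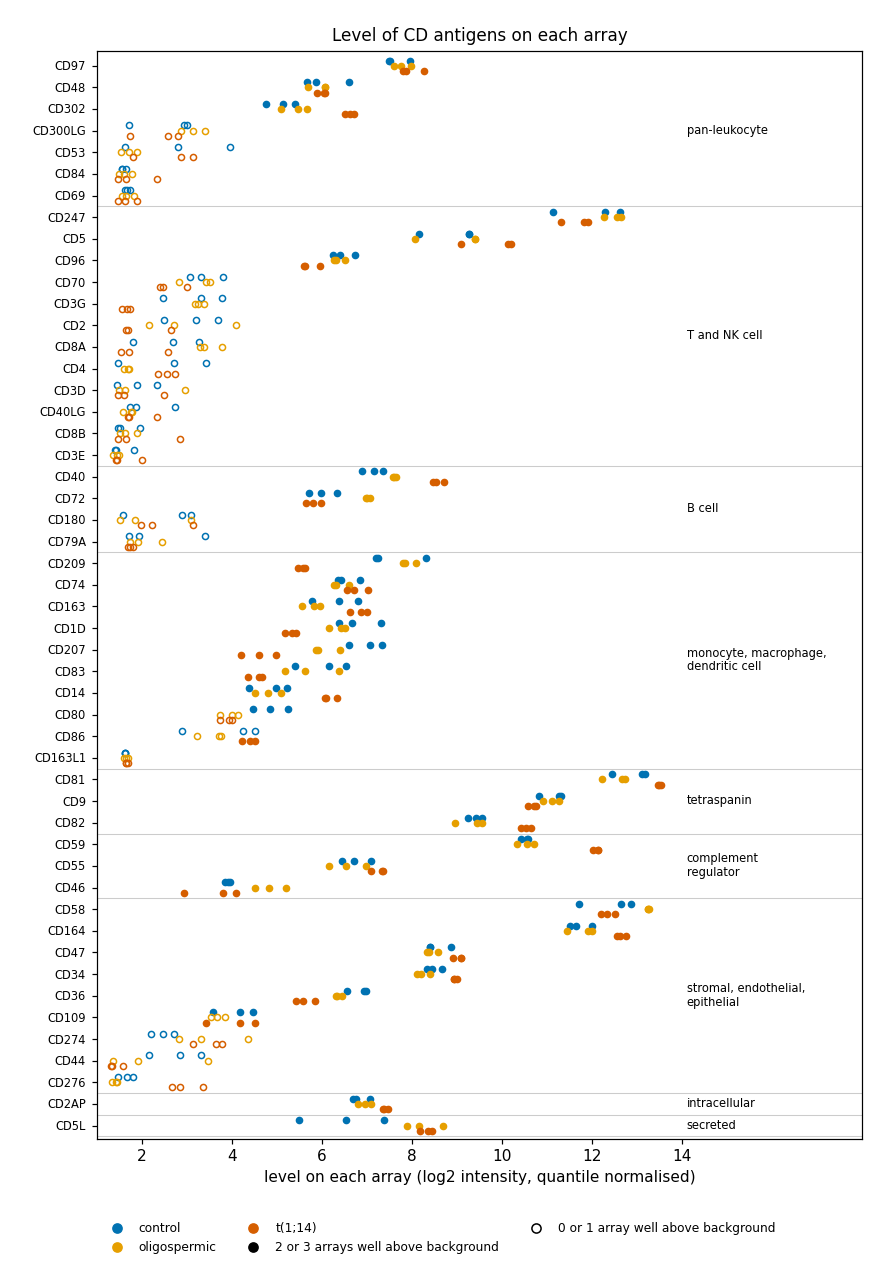
Level of 50 CD antigens on each array (x axis, log2 intensity after quantile normalisation), grouped by role; colours are the 3 groups, and filled points mark groups with 2 or 3 arrays well above background. The T cell genes and CD79A named above have open points in all groups, at levels between 1.33 and 4.09, while most antigens of macrophages and of many cell types have filled points.

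Against control, 31 CD antigens could be tested in the t(1;14) boar. Of these 6 were higher (19.4%) and 5 lower (16.1%), while 15.6% of all probes tested were higher and 15.6% lower. With slide as a block 5 were higher and 5 lower, and 10.8% and 13.4% of all probes were. Without t(1;14) array 1, 2 or 3 the number lower was 1, 2 or 2 of 31, and the number higher was 4 in each case. Calls over all probes fell as well. Without array 1, 2389 of 39733 probes were higher and 4005 lower. Without array 2 these were 2904 and 4689 of 40475, and without array 3, 1958 and 3788 of 39761. With all arrays they were 6345 and 6323 of 40643. By the probe chosen for each, CD59, CD302, CD40, CD14, CD82 and CD164 were higher, and CD207, CD209, CD83, CD1D and CD36 were lower. Another CD59 probe was called lower in both comparisons of the t(1;14) boar, so that CD59 has no single direction. CD207 and CD209 also passed a fold threshold of 2 on the log2 scale, which 5.61% of all probes passed. The arrays of the 2 groups did not overlap for 19 of the 31, against 62% of all probes. With all arrays and without the block, the shares of CD antigens called were thus near those of the whole array. Their median difference was 0.34.

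Against the oligospermic boar, 30 could be tested, of which 11 were higher (36.7%, with 27.1% of all probes) and 8 lower (26.7%, with 22% of all probes) in the t(1;14) boar. CD209 alone among them passed both thresholds, as did 6.82% of all probes. The groups did not overlap for 24 of the 30, against 70.9% of all probes, and the median difference was 0.36. Both comparisons use the same t(1;14) arrays. With slide as a block, 13 were higher and 9 lower, and 31.0% and 25.0% of all probes were. CD80 passed the filter on low values through the controls only and CD86 through the t(1;14) arrays only, and CD109 did so through 1 group wherever the oligospermic boar was compared, so that their part in these counts is no support for a difference.

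**Figure D2:**
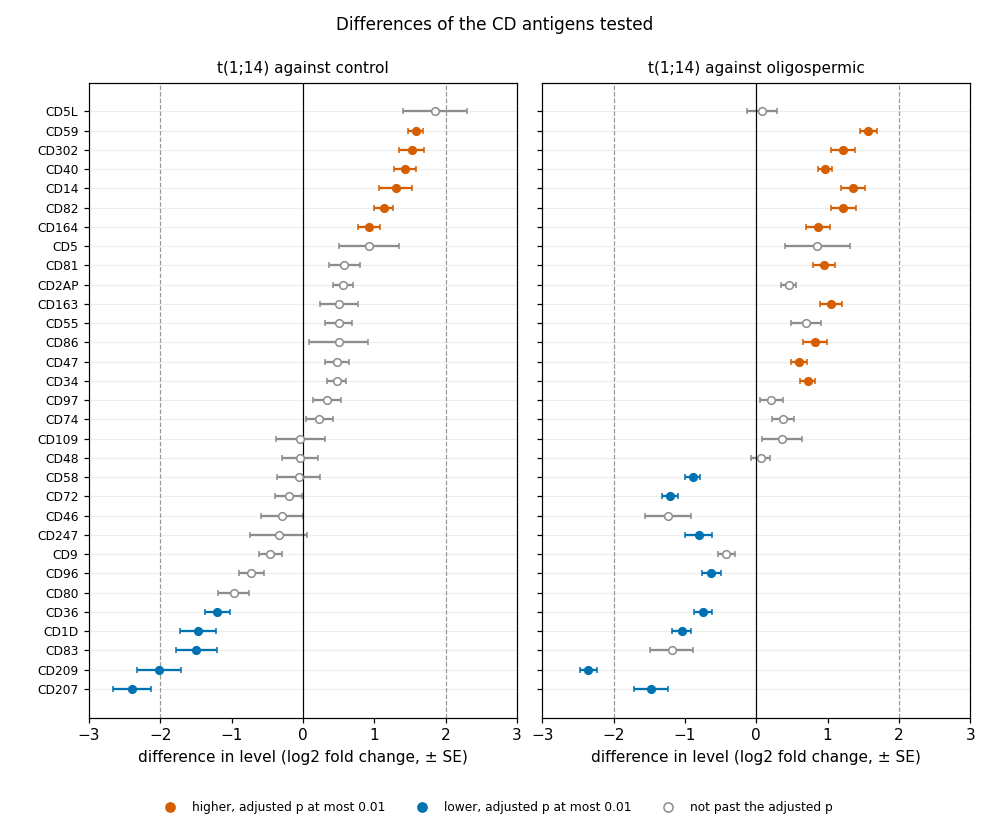
Difference of each CD antigen tested between the t(1;14) boar and the control (left) or the oligospermic arrays (right), as log2 fold change with its standard error on the x axis; filled points passed the adjusted p and dashed lines mark a log2 fold change of 2 either way. CD207 and CD209 lie furthest to the left at -2.40 and -2.02 against control. CD59 and CD302, at 1.58 and 1.52 there, are the filled points furthest to the right, with CD59 shown by its rising probe only.

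Markers of other cells moved between the same groups. Of 10 spermatid genes on the array, 8 were lower and 0 higher in t(1;14) against control, and leaving out 3 genes saturated on some arrays, the summed signal was 50108 to 53465 on the t(1;14), 168771 to 181414 on the control and 171578 to 191315 on the oligospermic arrays. Of 7 Leydig cell genes, 6 were higher and 0 lower, and the summed signal without 1 saturated gene was 84724 to 94625 in t(1;14), 12106 to 15126 in control and 12045 to 18900 in the oligospermic boar. STAR, the cholesterol carrier of steroid synthesis, differed most in that list, by 3.72. Of 8 peritubular and vascular genes, 2 were higher and 1 lower, and PECAM1 of endothelium rose by 1.41. Of 8 Sertoli cell genes 0 were higher and 1 lower, of 4 spermatogonial genes tested 1 was higher and 0 lower, and of 5 spermatocyte genes 1 was higher and 2 lower. The part of these cells in the differences of the CD antigens was not tested.

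Leukocyte genes outside the CD names moved both ways. Of 34 listed, 23 are on the array and 20 were tested against control, with 1 higher and 5 lower (median 0.08), where 15.6% of all probes were called each way. Against the oligospermic boar 10 of 20 were higher and 4 lower (median 0.48), where 27.1% and 22% of all probes were. Their summed signal was 7638 to 9297 in control, 7169 to 7580 in the oligospermic boar and 6989 to 7197 in t(1;14). BLNK, a B cell adaptor, and C1QC, a complement chain made by macrophages, fell by 2.30 and 1.95 against control, whereas PTPN6, a phosphatase of blood cells, rose by 0.95. The list was not uniform within a cell type, since C1QA and C1QB, the partner chains of C1QC, differed from control by 0.20 and -0.13 without a call and rose against the oligospermic boar by 1.27 and 0.84, where C1QC fell by 1.79. The myeloid genes TYROBP, FCER1G and AIF1 differed from control by 0.82, 0.73 and 0.68 without a call. Other genes of the list went the other way. SPI1 of myeloid cells and the integrin ITGAL were called lower, by 0.78 and 1.03 (adjusted p = 0.00204 and 0.000481). LYZ and LCP1 differed by -0.48 and -0.59 without a call. MS4A1 of B cells and PRF1 of cytotoxic cells were not well above background on any array. GZMB and GZMA, listed with PRF1, were well above background on all arrays. GZMB fell by 1.67 against control (adjusted p = 0.000198), and GZMA differed by 1.53 without a call (adjusted p = 0.0146). NKG7 differed by 0.54 without a call. Of the red cell genes, SLC4A1 was not well above background on any array, and the summed signal of the list was 13.2 to 62.0 in control, 44.0 to 50.8 in the oligospermic boar and 13.8 to 24.0 in t(1;14).

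Among the antigens of monocytes, macrophages and dendritic cells, 4 of 9 tested were lower (44.4%) and 1 was higher (11.1%) than control, with 15.6% of all probes each way. Against the oligospermic boar 3 of 8 tested were higher and 3 lower, with 27.1% and 22% of all probes. Those higher were CD14, CD163 and CD86. CD86 passed the filter through the t(1;14) arrays only, so that its part in this count is no support for a rise. CD207 (langerin) is a C-type lectin of Langerhans and dendritic cells. It read 7.33, 7.06 and 6.59 in controls, 5.91, 5.87 and 6.41 in the oligospermic boar and 4.60, 4.20 and 4.98 in the t(1;14) boar. The 3 groups did not overlap, with t(1;14) lowest and control highest. CD207 fell by 2.40 ± 0.27 against control, 5.29-fold (adjusted p = 0.000812), and by 1.47 ± 0.24 against the oligospermic boar (adjusted p = 0.00197). A second spot with the identical 60 bases under another name fell by 2.90 against control (adjusted p = 0.000176).

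CD209 (DC-SIGN) is a lectin of dendritic cells and macrophages that binds mannose-rich glycans, and its probe is given because it passed both thresholds in both comparisons.
CD209: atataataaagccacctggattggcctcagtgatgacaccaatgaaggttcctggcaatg
CD209 read 7.24, 8.30 and 7.20 in controls, 7.81, 7.84 and 8.10 in the oligospermic boar and 5.59, 5.63 and 5.46 in the t(1;14) boar. The t(1;14) arrays lay below all others, whereas control and oligospermic arrays overlapped. It fell by 2.02 ± 0.31 against control (4.06-fold, adjusted p = 0.00266) and by 2.36 ± 0.11 against the oligospermic boar (5.12-fold, adjusted p = 2.27e-05). Its second probe fell by 1.38 and 1.82 and was called in both comparisons. Without any single t(1;14) array, the adjusted p against control was over the threshold, with 0.0142 at most.

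CD83, a marker of mature dendritic cells, read 6.54, 6.15 and 5.41 in controls, 5.61, 6.38 and 5.17 in the oligospermic boar and 4.36, 4.60 and 4.66 in the t(1;14) boar. The t(1;14) arrays were the lowest of all. CD83 fell by 1.50 ± 0.29 against control (adjusted p = 0.00692), and the value against the oligospermic boar was -1.19 ± 0.30 (adjusted p = 0.0126). A second spot with its 60 bases fell by 1.70 against control (adjusted p = 0.00296) and by 1.11 against the oligospermic boar (adjusted p = 0.000806). The call against control was kept in 10 of 18 alternatives. It was lost without control array 1 or 2 or any t(1;14) array (adjusted p = 0.0101 to 0.0274), with normexp (0.0177), with no filter (0.0157) and with the replicate block (0.0253).

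CD1D presents lipids to natural killer T cells. It read 6.66, 6.37 and 7.31 in controls, 6.41, 6.16 and 6.50 in the oligospermic boar and 5.42, 5.17 and 5.34 in the t(1;14) boar. Again all t(1;14) arrays were below the others. The fall was 2.78-fold against control (-1.47 ± 0.25, adjusted p = 0.00390) and 2.07-fold against the oligospermic boar (-1.05 ± 0.13, adjusted p = 0.000611). A second CD1D probe, not well above background in t(1;14), was at least 1.53-fold lower than control (adjusted p = 0.0421, not called) and at least 1.77-fold lower than in the oligospermic boar (adjusted p = 0.00983). It was tested against the oligospermic boar through that boar only and is no second support for the fall. Without t(1;14) array 1, 2 or 3 the adjusted p of the first probe against control was 0.0142, 0.0161 or 0.0177, and the call was also lost with the replicate block (0.0113) and the mean of all probes (0.0104).

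CD14, the receptor that hands lipopolysaccharide to the Toll-like receptor complex, moved the other way. Its probe is given because CD14 was the only antigen of this group called higher against control.
CD14: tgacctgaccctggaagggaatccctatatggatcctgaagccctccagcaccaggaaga
CD14 read 4.38, 5.23 and 4.97 in controls, 4.52, 4.80 and 5.10 in the oligospermic boar and 6.07, 6.34 and 6.08 in the t(1;14) boar. All t(1;14) arrays were above the others. It rose 2.47-fold against control (1.30 ± 0.23, adjusted p = 0.00497) and 2.56-fold against the oligospermic boar (1.36 ± 0.17, adjusted p = 0.000637). The call against control was kept in 10 of 18 alternatives. It was lost with slide as a block (adjusted p = 0.0150), with the replicate block (0.0110), with no filter (0.0112), with the mean of all probes (0.0108), without control array 3 (0.0129) and without any t(1;14) array (0.0176 to 0.0196), and the identical 60 bases under another name differed by 0.99 (adjusted p = 0.0120). That spot differed from the oligospermic boar by 0.79 (adjusted p = 0.0102), so that it was called in neither comparison. The second CD14 probe was not well above background on any array.

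CD163, the scavenger receptor of macrophages for haemoglobin, read 6.38, 5.79 and 6.80 in controls, 5.96, 5.55 and 5.83 in the oligospermic boar and 6.62, 6.99 and 6.86 in the t(1;14) boar. The t(1;14) arrays overlapped with the controls and lay above the oligospermic arrays. The difference was 0.50 ± 0.27 against control (adjusted p = 0.162) and a rise of 1.05 ± 0.15 against the oligospermic boar (2.07-fold, adjusted p = 0.00122; 0.0145 with the mean of all probes). Another CD163 probe differed from control by -0.05. It was not well above background in the oligospermic boar, and since it was tested there through t(1;14) only, its limit of at least 1.93-fold higher (adjusted p = 0.00310) is a description. The remaining pair of probes was not well above background on any array. CD86, a costimulatory ligand, was not well above background in the oligospermic boar and at least 1.52-fold higher in t(1;14) (adjusted p = 0.00553), the only group through which it was tested. CD80, the other costimulatory ligand, was well above background on all 3 control arrays but on 1 t(1;14) array, and was not called (adjusted p = 0.0106). CD74, the invariant chain of MHC class II, differed by 0.23 and 0.37, with neither value past the threshold.

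**Figure D3:**
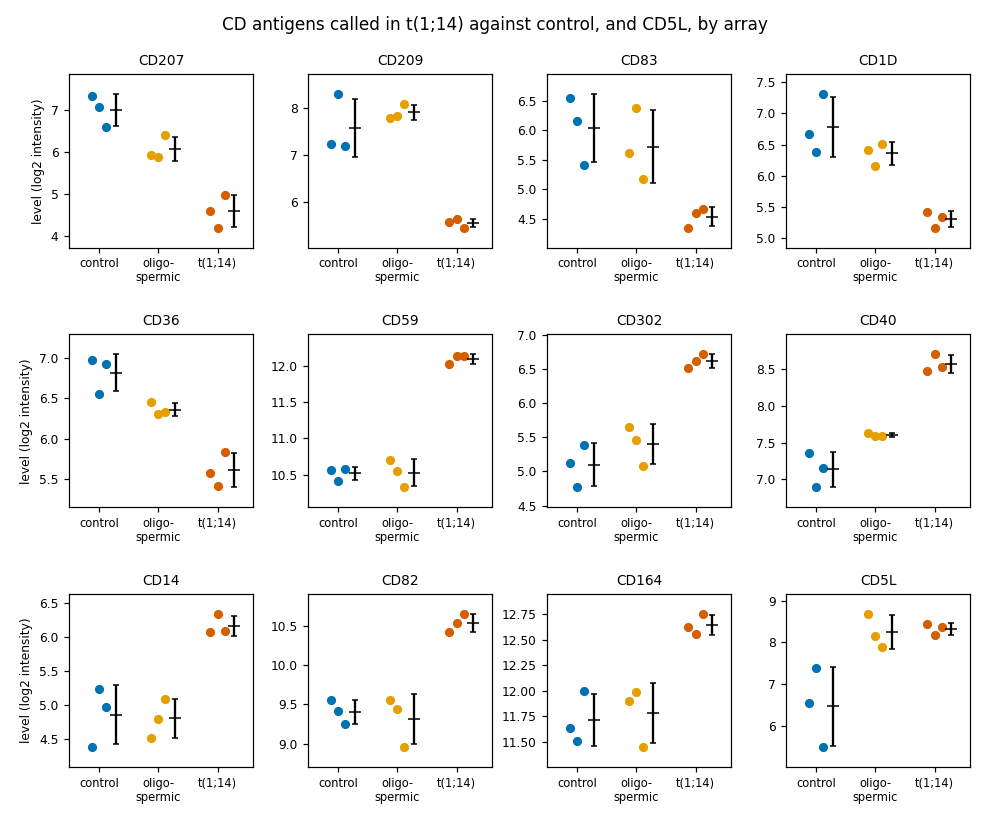
Level on each array (y axis, log2 intensity; each panel has its own range) of the 11 CD antigens called in t(1;14) against control and of CD5L; points are arrays, and the bar beside them is the mean with its SD over 3 arrays. For the 11 called antigens the t(1;14) arrays do not overlap with either other group. These were called on the same arrays, and 62% of all probes did not overlap against control and 70.9% against oligospermic. CD59 is shown by its rising probe only. For CD5L the controls, at 5.49 to 7.38, lie below both boars.

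Of the antigens listed as pan-leukocyte, 3 of 7 could be tested. That list holds CD302, which was thus not counted among the antigens of macrophages above, and neither were CD36 and CD5L. CD302, a lectin receptor of phagocytes, read 5.13, 4.77 and 5.39 in controls, 5.66, 5.47 and 5.08 in the oligospermic boar and 6.52, 6.62 and 6.72 in the t(1;14) boar. The t(1;14) arrays were above all others. It rose by 1.52 ± 0.18 against control (2.87-fold, adjusted p = 0.00106) and by 1.22 ± 0.16 against the oligospermic boar (adjusted p = 0.000899), and its second probe was also called higher in both comparisons. CD48, a ligand of lymphocyte adhesion, differed by -0.04 and 0.06, and CD97, an adhesion receptor that RefSeq lists as ADGRE5, by 0.34 and 0.21, and none of these values passed the threshold.

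Of the T and NK cell antigens, 3 of 12 could be tested and 0 were called against control. The brightest CD247 probe read 12.62, 11.14 and 12.29 in controls, 12.64, 12.26 and 12.55 in the oligospermic boar and 11.82, 11.91 and 11.31 in the t(1;14) boar. Control array 2 was low, so that the controls overlapped with t(1;14), whereas the oligospermic arrays all lay above the t(1;14) arrays. CD247 fell by 0.80 ± 0.19 against the oligospermic boar (adjusted p = 0.00947) and by 0.84 ± 0.11 with the probe in the tyrosine motif (adjusted p = 0.000790). Against control the values were -0.34 ± 0.40 (adjusted p = 0.510) and -0.61 ± 0.14 (adjusted p = 0.0114). CD96, a receptor of T and NK cells, fell by 0.63 ± 0.13 against the oligospermic boar (adjusted p = 0.00631) and differed from control by -0.73 ± 0.18 (adjusted p = 0.0152; 0.00923 with slide as a block). CD5, an inhibitory receptor of T cells, ranged from 8.08 to 10.21 with overlapping groups.

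Of the B cell antigens, CD40 and CD72 could be tested. CD40, the costimulatory receptor of B cells and other antigen-presenting cells, read 7.36, 6.89 and 7.16 in controls, 7.63, 7.58 and 7.59 in the oligospermic boar and 8.47, 8.70 and 8.53 in the t(1;14) boar. The 3 groups did not overlap. It rose by 1.43 ± 0.16 against control (2.69-fold, adjusted p = 0.000754) and by 0.96 ± 0.10 against the oligospermic boar (adjusted p = 0.000277), with all 3 of its probes called higher in both comparisons. CD72, an inhibitory coreceptor, read 6.33, 5.72 and 5.97 in controls, 7.08, 7.01 and 6.97 in the oligospermic boar and 5.64, 5.97 and 5.80 in the t(1;14) boar. The oligospermic arrays stood above both other groups, which overlapped. CD72 fell by 1.21 ± 0.11 against the oligospermic boar (2.32-fold, adjusted p = 0.000195), while its second probe differed by -0.32 (adjusted p = 0.112), and the first probe differed from control by -0.20 ± 0.19 (adjusted p = 0.403).

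CD59, the cell-bound inhibitor of the complement membrane attack complex, has 2 probes that moved in opposite directions. The brighter one, annotated to an Ensembl CD59 transcript, read 10.56, 10.41 and 10.58 in controls, 10.70, 10.55 and 10.32 in the oligospermic boar and 12.02, 12.14 and 12.13 in the t(1;14) boar. The other, annotated to the RefSeq CD59 mRNA, read 9.40, 10.39 and 9.87, then 9.55, 9.72 and 9.97, then 7.55, 7.14 and 7.34 in the same order. For both probes the t(1;14) arrays lay apart from all other arrays, above them for the first and below them for the second. The first rose by 1.58 ± 0.11 against control (2.99-fold, adjusted p = 0.000175) and the second fell by 2.54 ± 0.26 (5.83-fold, adjusted p = 0.000639). Against the oligospermic boar the values were 1.57 ± 0.12 and -2.40 ± 0.16, both called. The 60 bases of the falling probe occur a second time on the array, under a record name of the same RefSeq mRNA, and that spot fell by 2.59 (adjusted p = 0.000503).

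The first 30 of the 60 bases of each CD59 probe are given to show that they are different stretches, which share no run longer than 7 bases. Where they lie on the transcripts of CD59, and on which strand or isoform, was not analysed here, so the values are those of the probes and give no single direction for the gene.
CD59, rising probe: gctgtatactaatatcatagcctgactttt
CD59, falling probe: tttggattagagagagaaactttgagcgac
Averaged over both probes, CD59 differed by -0.48 against control (adjusted p = 0.0302) and fell by 0.42 against the oligospermic boar (adjusted p = 0.00574), the opposite direction to its brighter probe. With CD46 and CD55, the other complement regulators, no difference passed the threshold. The chosen CD46 probe, near background, differed by -0.30 ± 0.29 and -1.23 ± 0.32, and CD55 by 0.50 ± 0.19 and 0.70 ± 0.22. The 3 CD46 probes ran from -0.38 to 0.49 against control and from -1.23 to 1.06 against the oligospermic boar, without a call.

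CD9, a tetraspanin of many cell types that on the egg is needed for fusion with sperm, split in the same way over its 6 probes. The probe chosen for it read 11.26, 11.31 and 10.83 in controls, 11.27, 10.90 and 11.12 in the oligospermic boar and 10.58, 10.70 and 10.74 in the t(1;14) boar. It differed by -0.46 ± 0.16 against control (adjusted p = 0.0545), and another pair of probes by -0.41 and -0.38, none of them called. The remaining 3 probes were called higher, by 1.61, 1.75 and 1.77. One of these read 7.47, 7.95 and 7.73 in controls, 8.37, 8.29 and 7.86 in the oligospermic boar and 9.36, 9.41 and 9.62 in the t(1;14) boar.

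The 3 rising CD9 probes overlap in sequence, by 32 and 27 bases, and are therefore not independent of each other, whereas the other 3 share at most 8 bases with any CD9 probe on the same strand. The overlap of 27 bases is in capitals, in the end of one rising probe and the start of the next.
CD9, rising probe: tttGCTTATTATGTAAAGCAGAAATCCTGC
CD9, next rising probe: GCTTATTATGTAAAGCAGAAATCCTGCaat
Averaged over its 6 probes, CD9 rose by 0.65 against control (adjusted p = 0.00673), which is opposite in sign to its brightest probe. Against the oligospermic boar the same 3 probes were called higher, by 1.33 at most, and 1 of the others was called lower (-0.43, adjusted p = 0.00429).

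CD82, a tetraspanin of many cell types, read 9.55, 9.41 and 9.24 in controls, 9.55, 9.45 and 8.95 in the oligospermic boar and 10.42, 10.54 and 10.65 in the t(1;14) boar. The t(1;14) arrays were above all others. It rose by 1.13 ± 0.13 against control (2.20-fold, adjusted p = 0.000957; 0.0118 with the replicate block) and by 1.22 ± 0.17 against the oligospermic boar (adjusted p = 0.00117). A second probe, which shares 54 of its bases, rose by 1.25, whereas the third, which shares at most 6 bases with these, differed by -0.11 ± 0.18 (adjusted p = 0.614). CD81, a tetraspanin of the B cell coreceptor that most cells carry, rose by 0.95 ± 0.15 against the oligospermic boar (adjusted p = 0.00190), as did 4 more of its 6 probes, and differed from control by 0.58 ± 0.22 (adjusted p = 0.0626).

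Of 19 genes with at least 2 tested probes against control, 1 was called both ways (CD59), and 6 had probes of both signs. A call that the chosen probe lacks was made for CD59, CD9 and CD5L. For 22 probes the array holds the identical 60 bases under a name that is not a CD symbol. In the 11 such pairs tested on both spots, the sign against control was the same in 11, and the 2 values differed by 0.07 in the median and by 0.50 at most. The probes of CD59 and of CD9 thus lay further apart than any of these pairs.

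**Figure D4:**
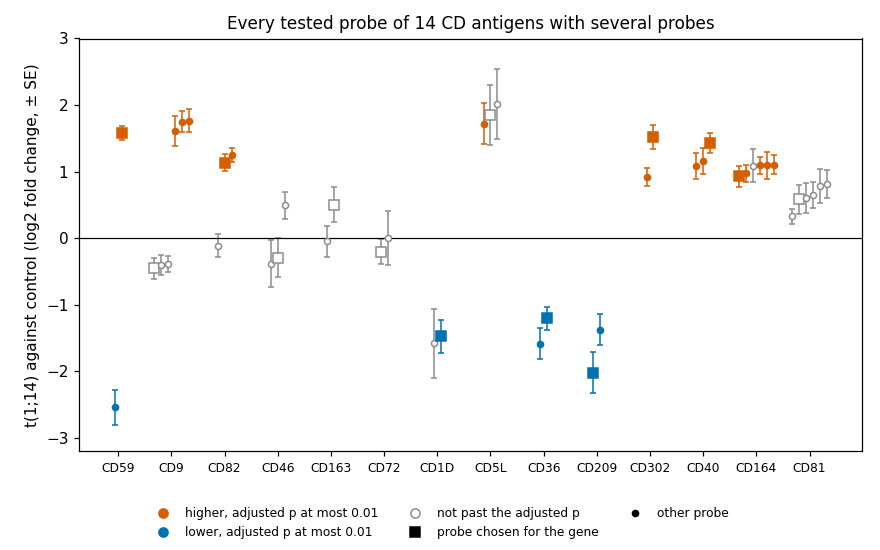
Difference between the t(1;14) boar and control (y axis, log2 fold change with its standard error) for every tested probe of 14 CD antigens with several probes; squares are the probes chosen for the genes and filled symbols passed the adjusted p. The probes of CD59 lie at 1.58 and -2.54 and those of CD9 form 2 groups either side of 0, whereas all probes of CD209, CD302, CD40, CD164 and CD81 lie on 1 side.

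Among the antigens of stromal, endothelial, epithelial and many other cells, 6 of 9 could be tested. CD164, a sialomucin of haematopoietic and other cells, read 11.64, 11.51 and 12.00 in controls, 11.91, 11.99 and 11.45 in the oligospermic boar and 12.63, 12.56 and 12.75 in the t(1;14) boar, above all others. It rose by 0.93 ± 0.16 against control (adjusted p = 0.00428; 0.0119 with slide as a block) and by 0.86 ± 0.16 against the oligospermic boar (adjusted p = 0.00368). The difference against control was at least 0.93 in all 6 of its probes, and 5 of them were called. The call of the chosen probe was also lost with the replicate block (0.0133) and without control array 1 or 2 or any t(1;14) array (adjusted p = 0.0106 to 0.0224).

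CD36, a scavenger receptor and fatty acid transporter of macrophages, endothelium and fat cells, read 6.97, 6.55 and 6.92 in controls, 6.45, 6.30 and 6.33 in the oligospermic boar and 5.58, 5.42 and 5.84 in the t(1;14) boar. The 3 groups did not overlap. It fell by 1.20 ± 0.17 against control (2.30-fold, adjusted p = 0.00221; 0.0107 with slide as a block, 0.0118 without t(1;14) array 1 and 0.0232 with the mean of all probes) and by 0.75 ± 0.13 against the oligospermic boar (adjusted p = 0.00275). A second probe fell by 1.59 and 1.23 in these comparisons, and the remaining pair was not tested.

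CD34 of endothelium and blood progenitors and CD47, the signal that restrains phagocytes, rose against the oligospermic boar by 0.72 ± 0.11 and 0.60 ± 0.11 (adjusted p = 0.00137 and 0.00324). The second tested CD34 probe differed by 0.38 (adjusted p = 0.0980) and from control by 0.05, neither called. Against control the differences of the chosen CD34 and CD47 probes, 0.47 and 0.48, did not pass the threshold. CD58, the adhesion ligand of CD2, read 12.86, 11.71 and 12.65 in controls, 13.25, 13.23 and 13.24 in the oligospermic boar and 12.20, 12.51 and 12.33 in the t(1;14) boar. The oligospermic arrays were the highest, and the controls, with array 2 low, overlapped with t(1;14). CD58 fell by 0.89 ± 0.11 against the oligospermic boar (adjusted p = 0.000553; 0.0184 with all 9 arrays in one model), its second probe by 0.86, and neither differed from control past the threshold. CD109, an inhibitor of proteases, was not called.

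CD2AP, an intracellular adaptor that binds CD2 and is no surface antigen, differed by 0.56 ± 0.14 against control (adjusted p = 0.0148). CD5L, a secreted protein of macrophages, separated the controls from both boars. It read 6.54, 7.38 and 5.49 in controls, 8.68, 8.16 and 7.88 in the oligospermic boar and 8.44, 8.17 and 8.36 in the t(1;14) boar, so that the controls were the lowest and varied most. The difference from control was 1.85 ± 0.45 in t(1;14) (adjusted p = 0.0155) and 1.77 ± 0.48 in the oligospermic boar (adjusted p = 0.283), and a second probe was called higher in t(1;14) against control (1.72 ± 0.31, adjusted p = 0.00511).

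Between the oligospermic boar and control, 0 of 30 CD antigens tested passed the adjusted p of limma, against 0.0755% of all probes. At an unadjusted p under 0.05 there were 8 (26.7%), against 9.84% of all probes. The smallest adjusted p was 0.124, for CD72, which was 1.01 ± 0.18 higher on the oligospermic arrays without overlap. With the replicate number, which is also the slide number here, as a block its adjusted p was 0.166.

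The 33 sequence tags, whose accession only looks like a CD number, were not counted among the antigens. Against control 20 could be tested, of which 2 were higher and 0 lower, with a median of 0.19 (15.6% of all probes each way, median 0.14). Against the oligospermic boar 3 of 22 were higher and 1 lower (27.1% and 22% of all probes).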

How the data were processed

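RNA was labelled with cyanine 3, hybridised to a custom 60K porcine array and read with Agilent Feature Extraction 11.5.1.1. The authors deposited spot intensities, background-subtracted by that software without normalisation between arrays, and log2 values for 38759 probes, which served as an alternative and to choose probes.

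Processed intensities were log2-transformed and quantile normalised over the 9 arrays with limma 3.58.1 in R 4.3.3. Testing required, in 1 group or more, 2 arrays that were flagged well above background and not flagged as outliers, which left 40643 probes for t(1;14) against control, 40567 against oligospermic and 39713 for oligospermic against control. Linear models with empirical Bayes variances took the 6 arrays of a comparison, two-sided, with Benjamini-Hochberg adjustment; the fits were tested on simulated data. Where 1 group was not well above background, the fold is a limit against the lowest signal well above background. Summed signals add linear normalised intensities. Tables were made in Python 3 with pandas.

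The members, gene lists and tests were chosen with earlier results of these data known. Named are the genes that define T cells, B cells and macrophages, those past both thresholds, and the largest rises and falls; other names were chosen after their values were seen. Symbols were matched to RefSeq (Sscrofa11.1) for 50 of the 51 genes, and CD97 is listed there as ADGRE5; no coordinates were used. Of the members, 1 is counted but not reported here by name.

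Arrays of oligospermic and control with the same replicate number correlated in their deviations (0.478, 0.136 and 0.101), and the numbers are those of the slides, so they pair these arrays. P-values measure the spread between arrays of few boars.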

Additional observations from a re-analysis of the deposited data

How the results depend on the processing

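Scaling, background correction, filters, the authors' log2 values, a single probe per name, the mean of all probes, slide or replicate number as a block, an intensity trend, all 9 arrays in one model, other thresholds and leaving out each array were tried. The counts of members higher or lower moved by over 1.5 times in few of these. At an adjusted p of at most 0.05, 10 were higher in t(1;14) than control. The mean of all probes gave 3 lower and 1 past both thresholds, with 6318 and 2280 of 40608 over the whole array. Past both thresholds there were also 1 with 75th percentile scaling and 0 with normexp, with 2290 and 996 of 40643 probes. At a log2 fold change of at least 1 there were 10. Shares of all probes at this threshold and at the adjusted p of 0.05 are not given here, so these 2 counts cannot be read against the array. Replicate numbers did not pair t(1;14) with control (correlations -0.285, -0.194 and 0.139) or with oligospermic (-0.421, -0.335 and 0.121). Arrays of 1 slide correlated (0.339, 0.109 and 0.119, and 0.489, 0.292 and 0.330), so that the slide block stands beside the counts in the results. With the replicate block, 3 were higher and 3 lower than control, 2 passed both thresholds, and 8 were higher and 6 lower than oligospermic. Of all 40643 probes tested against control, 1654 were then higher, 3634 lower and 2033 past both thresholds. Of 40567 tested against oligospermic, 5896 were higher and 6377 lower. Leaving out 1 array gave 4 to 6 higher and 1 to 6 lower than control, and 1 to 2 past both thresholds. It gave 8 to 12 higher and 5 to 7 lower than oligospermic, and 0 to 0 between oligospermic and control. Of 39733 to 40475 probes tested against control, 1958 to 7212 were then higher, 3788 to 6180 lower and 1962 to 2391 past both thresholds. Of 39552 to 40386 tested against oligospermic, 7023 to 11310 were higher and 7128 to 8616 lower. Between oligospermic and control, 4 to 37 probes were higher and 1 to 25 lower. All names the rule matches, chosen after seeing the data, gave 8 higher and 5 lower than control, with 15.6% of all probes each way. The mean of all probes reversed CD59 (-0.48 against control, -0.42 against oligospermic) and CD9 (0.65). Of 276 values of named members under the other settings, 257 kept direction and side of the threshold and 16 lost the call; of 138 without 1 array, 117 and 21. The cause was not tested. Members near background have only limits.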
